A study of Homo sapiens with 4 samples.

Results

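The genes of the Notch pathway described here were 9 rows of the count tables, taken by name out of 26475: the receptors NOTCH1, NOTCH2, NOTCH3 and NOTCH4, the ligands JAG1, JAG2 and DLL1, and the target genes HES1 and HEY1. They were chosen as a family and not for how they moved, though earlier results of these data were known. RNA came from mammospheres, floating spheres grown for 7 days without attachment, of MDA-MB-468, an established line of basal-like triple-negative breast cancer. The 4 conditions were cells with the vector control and no doxycycline (CTL), the same cells with doxycycline (CTL+dox), cells with a guide RNA against TCOF1 and no doxycycline (gRNA2), and the guide cells with doxycycline (gRNA2+dox). Doxycycline switches on the guide, and the labels give gRNA2+dox as the TCOF1 knockout and the 3 other conditions as wild type. By the study's methods the cells were sorted pools that carry Cas9 and the inducible guide vector, not clones, and several plates were pooled for each condition. Each condition had 1 library, so no value below has a replicate check, no p-value is given, and every interval covers counting error only.

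Notch receptors are single-pass proteins that are cut by furin on the way to the surface and are bound there by Jagged or Delta-like ligands on a neighbouring cell. Binding lets an ADAM protease and then gamma-secretase release the intracellular domain, which joins RBPJ and a Mastermind coactivator on DNA and turns on HES and HEY genes. HES and HEY proteins are transcriptional repressors, and HES1 also represses its own gene. In the mammary gland the pathway is known for its part in progenitor cells and luminal fate, and in breast cancer for its part in mammosphere growth.

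The 4 libraries held 19960644 to 26322847 reads on genes. TCOF1, the guide's target, had 1019 reads (CTL), 754 (CTL+dox), 1318 (gRNA2) and 437 (gRNA2+dox), or 49.9, 33.5, 50.6 and 20.0 normalized read counts (CPM, scaled to library size). It was lowest in gRNA2+dox. Doxycycline in the control pool also went with less TCOF1, at a log2 ratio of -0.58 with a 95% interval of -0.71 to -0.44. The 6 basal epithelial markers together had 18817 to 20349 CPM, although 1 of them, TP63, had only 11 to 33 reads. The 5 general epithelial markers summed to 5155 to 5935 CPM. The 4 luminal hormone markers summed to 139 to 192 CPM. GATA3 had 2525 to 4169 reads and FOXA1 570 to 841, but ESR1 had at most 13 and PGR at most 7. Of the 6 leukocyte markers 5 had at most 10 reads in every library, while CD68, a macrophage marker also used by other cells, had 1905 to 3036 reads, and the list summed to 94.1 to 117 CPM. Of the 5 endothelial markers 2 had at most 10 reads in every library, with CDH5 at 0 in all 4, while KDR had 257 to 337 reads, and the list summed to 13.8 to 16.5 CPM. The 5 fibroblast markers, 3 of them with at most 10 reads, summed to 16.9 to 21.5 CPM. Most of that sum was COL1A1, with 358 to 543 reads or 16.2 to 20.8 CPM. In bulk RNA, fewer cells that use a gene and less RNA per cell cannot be told apart.

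Some reads of NOTCH2 cannot be placed with certainty, because the human-specific NOTCH2NL genes are partial copies of its first exons. Over exons 2 to 4, which are equally long in NOTCH2 and NOTCH2NLA in GRCh37, 6 of 678 bases differed. The last 150 bases of exon 3, which are coding in both genes, are shown because they hold both of the differences of that exon, printed in capitals. NOTCH2 lies here at chr1:120547952-120548101 on the reverse strand and NOTCH2NLA at chr1:145273295-145273444 on the forward strand.
NOTCH2: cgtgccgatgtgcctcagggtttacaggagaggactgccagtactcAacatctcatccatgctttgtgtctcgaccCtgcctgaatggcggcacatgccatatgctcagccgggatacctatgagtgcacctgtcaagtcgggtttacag
NOTCH2NLA: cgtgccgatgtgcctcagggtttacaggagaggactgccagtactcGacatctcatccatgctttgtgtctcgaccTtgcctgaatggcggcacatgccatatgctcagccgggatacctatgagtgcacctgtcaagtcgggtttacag
Of all 100-base stretches of the longest coding NOTCH2 transcript, 1.59% also occurred in transcripts of other genes, among them NOTCH2NLA, NOTCH2NLB, NOTCH2NLC and NBPF10. That share was 6.54% for JAG2, through 1 unnamed overlapping gene, and 0 for the 7 other genes.

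The upstream sequences of HES1 and HES4 are shown because both genes are transcribed targets whose levels are described below. The letters searched were TGGGAA on either strand, the core of the RBPJ binding motif, in the 250 bases before each gene's start in RefSeq (GRCh38). Matches are in capitals. HES1 lies on the forward strand and its window is chr3:194135898-194136147, while HES4 lies on the reverse strand and its window is chr1:1000098-1000347.
HES1: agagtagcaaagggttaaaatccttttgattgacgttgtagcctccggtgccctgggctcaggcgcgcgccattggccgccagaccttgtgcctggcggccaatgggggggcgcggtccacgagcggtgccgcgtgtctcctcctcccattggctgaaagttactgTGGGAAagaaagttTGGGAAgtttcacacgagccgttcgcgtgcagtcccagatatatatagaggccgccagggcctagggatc
HES4: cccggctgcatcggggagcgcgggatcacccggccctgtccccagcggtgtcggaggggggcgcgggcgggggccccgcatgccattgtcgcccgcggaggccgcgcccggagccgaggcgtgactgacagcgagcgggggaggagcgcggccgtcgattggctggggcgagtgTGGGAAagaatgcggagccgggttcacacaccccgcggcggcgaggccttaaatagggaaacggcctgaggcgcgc
HES1 held 2 matches, starting at -84 and -70 from the gene's start with 8 bases between them, and HES4 held 1 match at -76. Of the 35116 promoters searched, 20.8% held at least 1 match and 2.90% at least 2. Among the 9 genes, 7 had a sequence in the table and 1 of these, HES1, held a match. Of 8 further HES, HEY and NRARP genes, 4 did: HES4, HES5, HEY2 and HEYL. A match is a description of these letters and not a binding site.

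To set the genes against each other, CPM were divided by the kb of each gene's exons. NOTCH3 had the highest level per kb, 60.5 to 66.6 CPM per kb over the 4 libraries, followed by HES1 at 41.2 to 48.2 and NOTCH2 at 20.0 to 24.4. JAG1 followed at 13.1 to 15.0 CPM per kb and NOTCH1 at 5.56 to 6.75. JAG2 and HEY1 came next, at 0.938 to 1.28 and 0.776 to 1.11 CPM per kb. NOTCH4 stood at 0.0329 to 0.111 and DLL1 at 0.0101 to 0.0697 CPM per kb. The first 5 genes kept this order in each of the 4 libraries with counting intervals that did not overlap. JAG2 and HEY1 had overlapping intervals in 3 of the 4 libraries, all but CTL+dox, and changed places when the longest coding transcript was used as the length, and the intervals of NOTCH4 and DLL1 overlapped in 3 libraries, all but gRNA2.

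**Figure D1:**
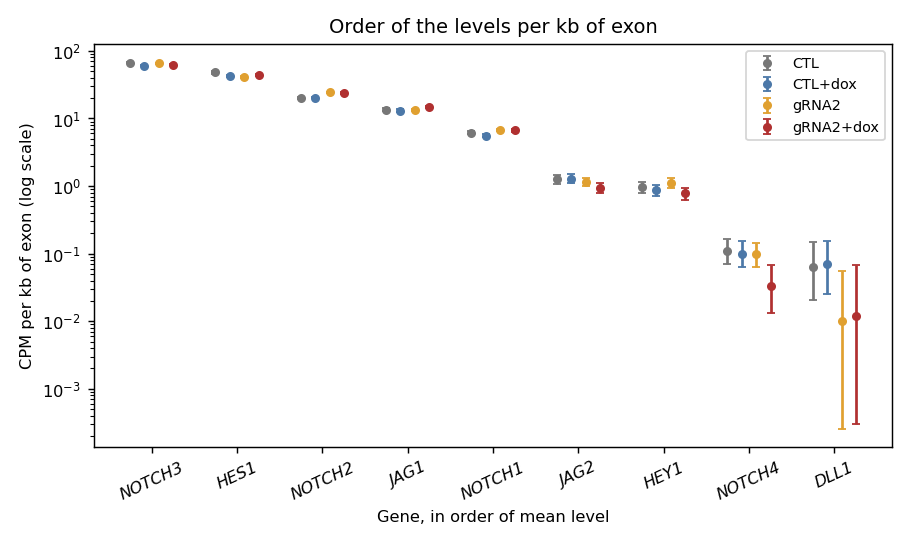
The level of each gene in CPM per kb of exon, on a log scale, with genes in order of their mean level. Points are libraries, coloured by condition, and bars are 95% counting intervals; NOTCH3 is highest at 60.5 to 66.6 CPM per kb and DLL1 lowest at 0.0101 to 0.0697.

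Within the receptors, NOTCH3 made up 71.7% of the summed level per kb (CTL), 70.0% (CTL+dox), 67.6% (gRNA2) and 67.0% (gRNA2+dox). The share of NOTCH2 went the other way, from 21.6% in CTL and 23.4% in CTL+dox to 25.3% in gRNA2 and 25.8% in gRNA2+dox. NOTCH1 held 6.44 to 7.19% of that sum. Among the 3 ligands, JAG1 held 90.6 to 94.0% of the summed level per kb.

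NOTCH3 (chromosome 19, 15159038 to 15200995, GRCh38) had 12804 reads (CTL), 12823 (CTL+dox), 16032 (gRNA2) and 12727 (gRNA2+dox), or 627, 569, 615 and 583 CPM. Both libraries with doxycycline were lower than both without it, by a small amount. The log2 ratio with doxycycline was -0.14 in the control pool (95% interval -0.17 to -0.10) and -0.08 in the guide pool (-0.11 to -0.05).

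NOTCH2 (chromosome 1, 119911553 to 120069662, GRCh38) had 6854 reads (CTL), 7641 (CTL+dox), 10661 (gRNA2) and 8708 (gRNA2+dox), or 336, 339, 409 and 399 CPM. Its level followed the pool and not doxycycline: both guide libraries were above both control libraries. The log2 ratio was 0.29 for gRNA2 against CTL (0.24 to 0.33) and 0.23 for gRNA2+dox against CTL+dox (0.19 to 0.28), while it was 0.02 with doxycycline in the control pool (-0.03 to 0.06) and -0.04 in the guide pool (-0.08 to 0.00). The tables also held 1 row named NOTCH2NL, with 3532 reads (CTL), 4613 (CTL+dox), 4295 (gRNA2) and 3712 (gRNA2+dox). Reads of NOTCH2 per read of NOTCH2NL were 1.94, 1.66, 2.48 and 2.35 in these libraries, so the row of copies did not move in step with NOTCH2. NOTCH2NL was highest in CTL+dox, with a log2 ratio of 0.24 to CTL (0.18 to 0.31). Which of the copies this row counts could not be matched.

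NOTCH1 (chromosome 9, 136494433 to 136546048, GRCh38) had 1564 reads (CTL), 1570 (CTL+dox), 2202 (gRNA2) and 1818 (gRNA2+dox), or 76.6, 69.7, 84.5 and 83.2 CPM. Like NOTCH2, it was higher in both guide libraries than in both control libraries. The log2 ratio was 0.14 for gRNA2 against CTL (0.05 to 0.24), 0.26 for gRNA2+dox against CTL+dox (0.16 to 0.36) and -0.14 for CTL+dox against CTL (-0.24 to -0.03), and between gRNA2+dox and gRNA2 it was -0.02 (-0.11 to 0.07).

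Gene length moved with part of these ratios. NOTCH1 and NOTCH2, with 12.5 and 16.7 kb of exons, fall in the longest 10% of 9921 genes. The 9921 genes had at least 100 reads in every library and a known exon length. In gRNA2+dox against CTL+dox the median log2 ratio was 0.09 in the longest 10% and -0.07 in the shortest 10%. Centred on genes of like length, the log2 ratio of NOTCH2 was 0.15 in that comparison and 0.23 in gRNA2 against CTL, and that of NOTCH1 was 0.18 and 0.09. For NOTCH3 and NOTCH1 in CTL+dox against CTL, the centred ratios were -0.08 and -0.09 by exon length and -0.07 for both by GC content. The part of gene length or GC content in these ratios was not tested further.

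NOTCH4 (chromosome 6, 32194843 to 32224067, GRCh38), a receptor best known from endothelium, was counted with few reads: 22 (CTL), 22 (CTL+dox), 25 (gRNA2) and 7 (gRNA2+dox). These were 1.08, 0.977, 0.960 and 0.321 CPM, so 3 libraries lay together and gRNA2+dox lay lower. The log2 ratio of gRNA2+dox to gRNA2 was -1.52 (-3.04 to -0.33). To CTL+dox it was -1.54 (-3.08 to -0.33), and to CTL it was -1.68 (-3.22 to -0.47). These are the largest ratios among the 8 of the 9 genes with enough reads to be compared, and their intervals run from a small difference to one of several fold. All 3 share the 7 reads of 1 library and are not independent of each other.

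**Figure D2:**
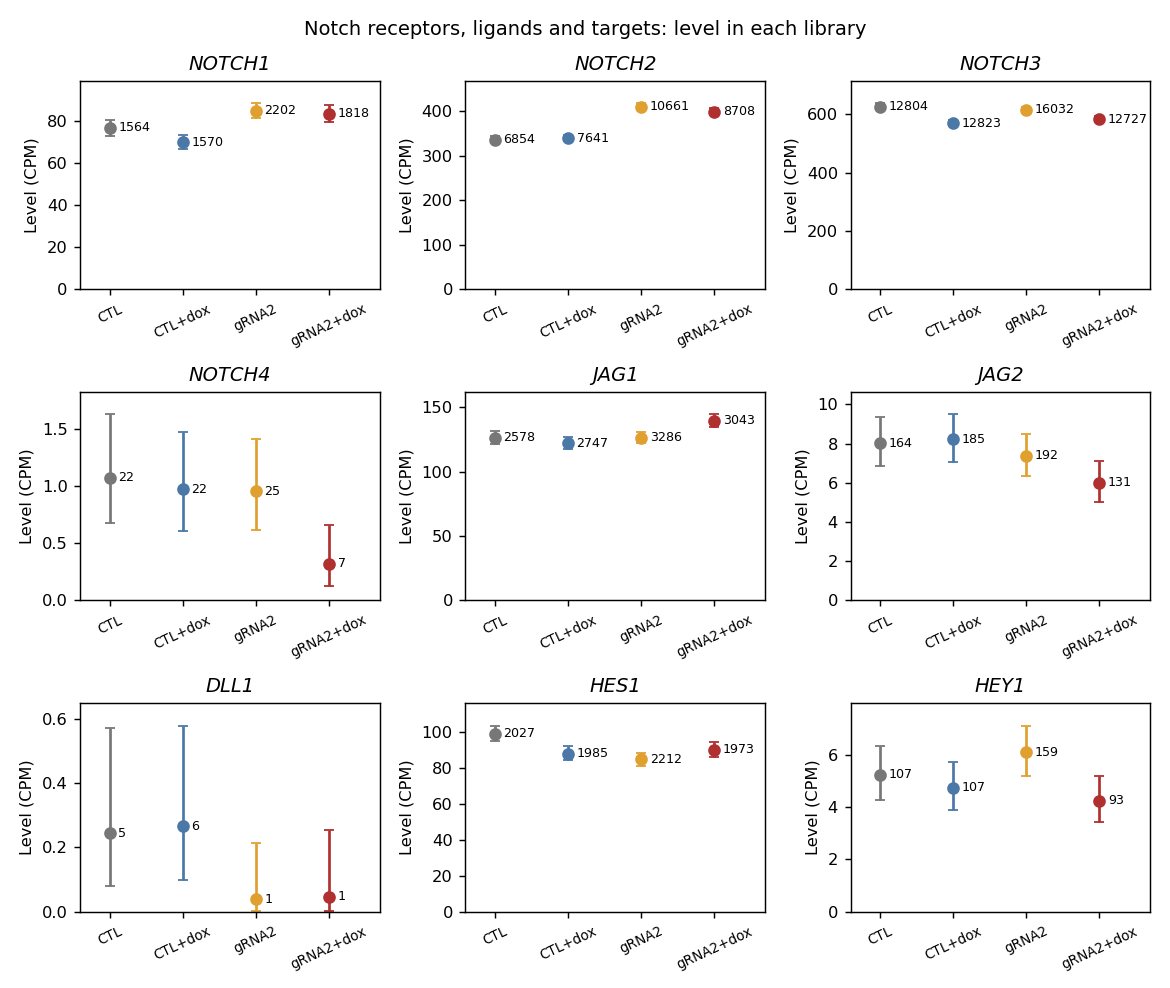
The level of each of the 9 genes in CPM in the 4 libraries, on linear axes that start at 0. Points are single libraries labelled with their reads and bars are 95% counting intervals; NOTCH2 and NOTCH1 sit higher in both guide libraries, and NOTCH4 is lowest in gRNA2+dox with 7 reads.

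JAG1 (chromosome 20, 10637684 to 10673999, GRCh38), the main ligand here, had 2578 reads (CTL), 2747 (CTL+dox), 3286 (gRNA2) and 3043 (gRNA2+dox), or 126, 122, 126 and 139 CPM. The first 3 libraries were close to each other and gRNA2+dox stood above them. Its log2 ratio was 0.14 to gRNA2 (0.07 to 0.22), 0.19 to CTL+dox (0.12 to 0.27) and 0.14 to CTL (0.07 to 0.22). In fold terms gRNA2+dox held 1.10 times the JAG1 of gRNA2.

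JAG2 (chromosome 14, 105140995 to 105168776, GRCh38), the second Jagged ligand, moved the opposite way. It had 164 reads (CTL), 185 (CTL+dox), 192 (gRNA2) and 131 (gRNA2+dox), or 8.03, 8.21, 7.37 and 6.0 CPM. The lowest level was that of gRNA2+dox, with a log2 ratio of -0.45 to CTL+dox (-0.79 to -0.12), -0.42 to CTL (-0.76 to -0.08) and -0.30 to gRNA2 (-0.63 to 0.03). The last interval includes 0, so the difference within the guide pool was not detectable at this depth.

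DLL1 (chromosome 6, 170282206 to 170291078, GRCh38), a Delta-like ligand, had 5 reads (CTL), 6 (CTL+dox), 1 (gRNA2) and 1 (gRNA2+dox). It had fewer than 10 reads in every library and was left out of the comparisons. The 95% interval of the ratio of gRNA2+dox to CTL+dox ran from 0.00374 to 1.42 times, which shows how little these reads can tell.

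HES1 (chromosome 3, 194136148 to 194138732, GRCh38), the best known Notch target, had 2027 reads (CTL), 1985 (CTL+dox), 2212 (gRNA2) and 1973 (gRNA2+dox), or 99.3, 88.1, 84.9 and 90.3 CPM. CTL was the highest of the 4 and the other libraries lay within a narrow band. Against CTL the log2 ratio was -0.17 for CTL+dox (-0.26 to -0.08), -0.23 for gRNA2 (-0.31 to -0.14) and -0.14 for gRNA2+dox (-0.23 to -0.05). Between gRNA2+dox and gRNA2 it was 0.09, with an interval from just above 0 to 0.18 that included 0 when total counts set the library sizes, and between gRNA2+dox and CTL+dox 0.04 (-0.06 to 0.13).

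HEY1 (chromosome 8, 79764010 to 79767767, GRCh38), a related repressor, had 107 reads (CTL), 107 (CTL+dox), 159 (gRNA2) and 93 (gRNA2+dox), or 5.24, 4.75, 6.10 and 4.26 CPM. The libraries of the guide pool were the highest and the lowest of the 4. The log2 ratio of gRNA2+dox to gRNA2 was -0.52 (-0.91 to -0.14), while against CTL+dox it was -0.16 (-0.57 to 0.26) and against CTL -0.30 (-0.72 to 0.12). HES1 and HEY1 thus had ratios of opposite sign within the guide pool.

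Each library was then compared with another under 2 rules. The first follows the cut-offs of the study: a log2 ratio beyond 1 in either direction, and a bound beyond 0.5, where 99% of the ratio's distribution under counting error lies beyond the bound. By this rule 0 of the 8 genes compared were called in any of the 5 comparisons. For gRNA2+dox, the same rule called 0.526% of the 15204 genes tested when gRNA2 was the reference, 1.43% with CTL+dox and 1.20% with CTL. It called 0.171% in CTL+dox against CTL and 0.474% in gRNA2 against CTL. NOTCH4 passed the 2-fold cut-off in the 3 comparisons with gRNA2+dox but its bounds, -0.20, -0.21 and -0.35, did not reach -0.5. With the bound taken at 5% in place of 1%, NOTCH4 was called lower in those 3 comparisons.

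The second rule asks whether the 95% interval of the ratio leaves out 0. In gRNA2+dox against gRNA2, 3 genes were lower (NOTCH3, NOTCH4 and HEY1) and 2 higher (JAG1 and HES1), beside 17.3% lower and 13.6% higher of all genes tested. Against CTL+dox, 2 were lower (NOTCH4 and JAG2) and 3 higher (NOTCH1, NOTCH2 and JAG1), beside 19.4% lower and 20.8% higher of all genes. Against CTL, 4 were lower (NOTCH3, NOTCH4, JAG2 and HES1) and 3 higher (NOTCH1, NOTCH2 and JAG1), beside 14.7% lower and 18.6% higher of all genes. NOTCH4 was lower and JAG1 higher in each of these 3 comparisons, which share the gRNA2+dox library.

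In CTL+dox against CTL, 3 genes were lower (NOTCH1, NOTCH3 and HES1) and 0 higher, beside 14.3% lower and 16.6% higher of all genes. In gRNA2 against CTL, 1 was lower (HES1) and 2 were higher (NOTCH1 and NOTCH2), beside 11.8% lower and 19.7% higher of all genes. The median log2 ratio of the 8 genes was -0.06, 0.03, -0.12, -0.14 and -0.01 in the 5 comparisons in the order given, beside -0.02, 0.00, 0.01, 0.01 and 0.03 over all genes tested. The 3 genes with the most reads, NOTCH3, NOTCH2 and JAG1, had narrow intervals, so that small ratios passed this rule.

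**Figure D3:**
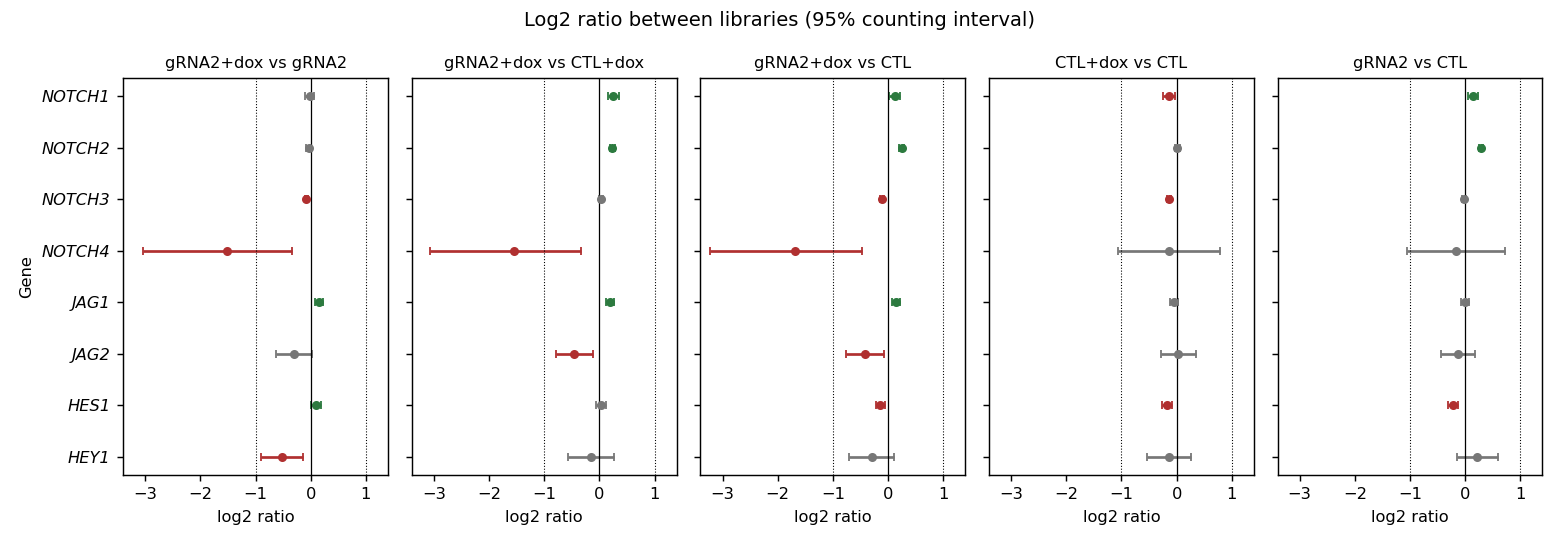
Log2 ratio of the 8 genes with enough reads in the 5 comparisons, with 95% counting intervals as bars. Red marks intervals below 0, green intervals above 0, grey intervals that include 0, and dotted lines a 2-fold difference; NOTCH4 alone lies beyond a dotted line, at -1.52 to -1.68 in the comparisons with gRNA2+dox.

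The doxycycline ratio in the guide pool was then set against that in the control pool. The difference of the log2 ratios was above 0 beyond counting error for HES1 at 0.26 (0.14 to 0.39), JAG1 at 0.19 (0.09 to 0.30) and NOTCH3 at 0.060 (0.01 to 0.11), and below it for 0 of the 8 genes. Of all genes tested, 27.2% had an interval without 0, 11.7% above it and 15.5% below it. The differences were not centred by exon length or GC content. HES1 was lower with doxycycline in the control pool and slightly higher in the guide pool. NOTCH4 had a difference of -1.38 (-2.86 to 0.03), HEY1 of -0.38 (-0.91 to 0.16) and JAG2 of -0.33 (-0.77 to 0.11), and these intervals include 0.

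Other target genes on a list of 60 further pathway genes were read the same way. HES4, a HES gene absent from the mouse, had 2945 reads (CTL), 3011 (CTL+dox), 2297 (gRNA2) and 2326 (gRNA2+dox), or 144, 134, 88.2 and 106 CPM. It was lower in both guide libraries, with a log2 ratio of -0.71 for gRNA2 against CTL (-0.79 to -0.63), and higher with doxycycline in the guide pool at 0.27 (0.19 to 0.36). Its doxycycline ratios differed by 0.38 (0.27 to 0.49) between the pools.

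NRARP, a target that limits Notch signalling, had 24.1 CPM (CTL), 15.6 (CTL+dox), 21.5 (gRNA2) and 23.5 (gRNA2+dox). HEY2, a repressor of the HEY family, had 4.70, 3.02, 4.38 and 5.77 CPM in the same order, from 68 to 126 reads. Both were lowest in CTL+dox: the log2 ratio to CTL was -0.63 (-0.83 to -0.43) for NRARP and -0.64 (-1.11 to -0.18) for HEY2. Their doxycycline ratios differed between the pools by 0.76 (0.49 to 1.02) and 1.03 (0.46 to 1.61). TCOF1 was also lower in CTL+dox than in CTL, at 33.5 against 49.9 CPM, but unlike NRARP and HEY2 it was lowest in gRNA2+dox, at 20.0 CPM. The part of the CTL+dox library in these differences cannot be told apart from doxycycline itself.

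HES2 and HES6, less studied HES genes, were lower in the guide pool. HES2 had 35.4 CPM (CTL), 31.0 (CTL+dox), 26.5 (gRNA2) and 22.3 (gRNA2+dox), and HES6 had 24.4, 32.5, 16.3 and 18.9. In gRNA2 against CTL the log2 ratio was -0.42 (-0.57 to -0.27) for HES2 and -0.58 (-0.77 to -0.39) for HES6. All 6 further targets with enough reads had a ratio below 0 in that comparison, beside 44.5% of all genes tested. Their median was -0.31 beside 0.03 over all genes, and 3 of them passed the interval rule, beside 11.8% lower of all genes. HES7, 1 of the 6, had 20 reads in gRNA2 and 18 in CTL. Of the targets among the 9 genes, HES1 was also lower there, while HEY1 was higher, at 6.10 against 5.24 CPM. The doxycycline ratios of HES2, HES6 and HES7 differed between the pools by -0.05, -0.20 and -0.02, with intervals that include 0. This is unlike HES4, NRARP and HEY2, and 11.7% of all genes tested had an interval above 0. HES5 and HEYL had at most 4 reads in any library.

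**Figure D4:**
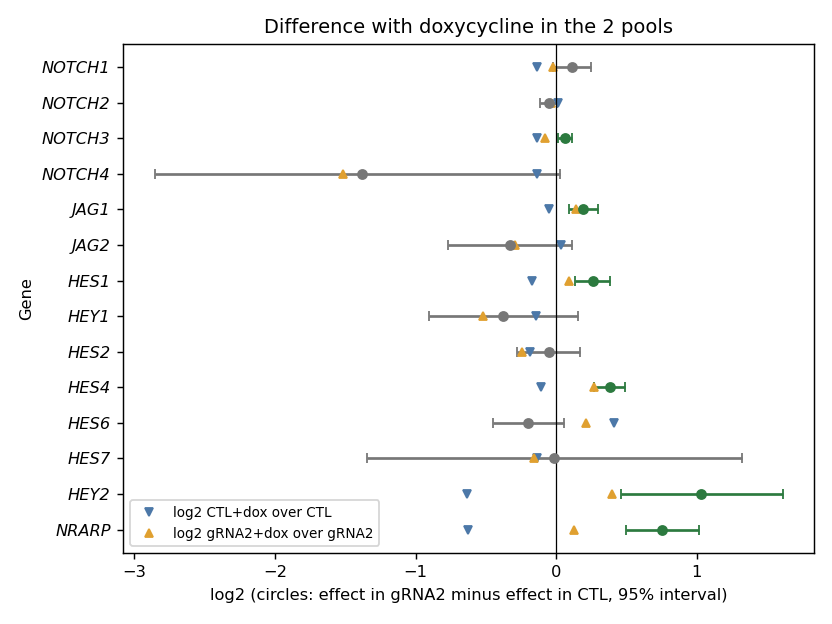
Doxycycline ratios of the Notch genes and of 6 further targets in log2 units. Triangles give the ratio in each pool and circles their difference, guide pool minus control pool, with the 95% counting interval. HES1, HES4, HEY2 and NRARP lie above 0 at 0.26, 0.38, 1.03 and 0.76. HEY1, HES2, HES6 and HES7 are at -0.38, -0.05, -0.20 and -0.02 with intervals that include 0.

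The rest of the list covers the pathway from ligand to DNA. Of its 60 genes, 57 had enough reads to be compared, and 0 of the 57 were called by the first rule in any comparison. By the interval rule, 6 were lower and 8 higher in gRNA2+dox against gRNA2, beside 17.3% and 13.6% of all genes tested. The counts were 7 and 24 for gRNA2+dox against CTL+dox, beside 19.4% and 20.8%, and 9 and 16 for it against CTL, beside 14.7% and 18.6%. They were 22 and 7 in CTL+dox against CTL, beside 14.3% and 16.6%, and 8 and 15 in gRNA2 against CTL, beside 11.8% and 19.7%. The median log2 ratio of the 57 genes was 0.02, 0.12, 0.04, -0.11 and 0.01 in these comparisons. The comparisons share libraries, and the counts with CTL+dox on either side are the most uneven. Centred on genes of like exon length, the median against CTL+dox was 0.10 and that of CTL+dox against CTL was -0.09.

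Among the ligands outside the 9 genes, DLL3 had the most reads, 101 to 148 per library, and its interval included 0 in all 5 comparisons. DLL4 had 58 to 88 reads, and 0 of the 3 ligands compared passed the interval rule in any comparison. Of the enzymes that add sugars to the receptors, RFNG, a Fringe glycosyltransferase, had 842 to 1113 reads and a log2 ratio of 0.17 in gRNA2+dox against CTL (0.04 to 0.31). LFNG and POGLUT1 had at most 23 and 70 reads, and their ratios passed the interval rule in CTL+dox against CTL at -1.17 and 0.73.

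Of the proteases that cut the receptors, ADAM10, which makes the first cut after ligand binding, had 2349 to 3031 reads and log2 ratios of -0.03 to 0.06 in the 5 comparisons, with every interval including 0. APH1B, a gamma-secretase subunit, had 5 reads (CTL), 21 (CTL+dox), 20 (gRNA2) and 16 (gRNA2+dox), which gave a log2 ratio of 1.84 for CTL+dox against CTL (0.48 to 3.69). In CTL+dox against CTL, 4 of the 9 protease genes were higher and 0 lower, beside 16.6% and 14.3% of all genes tested, and the 4 were the gamma-secretase genes APH1A, PSENEN, PSEN2 and APH1B. In gRNA2+dox against gRNA2, 2 were higher and 0 lower, beside 13.6% and 17.3% of all genes. Against CTL+dox, 2 of the 9, FURIN and APH1A, were lower and 0 were higher, beside 19.4% and 20.8% of all genes.

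The coactivator genes with the most reads were higher in the guide pool. EP300, the acetyltransferase recruited by Mastermind, had 173 CPM (CTL), 153 (CTL+dox), 215 (gRNA2) and 220 (gRNA2+dox). Its paralog CREBBP had 66.6, 60.8, 83.7 and 88.1 CPM. Both guide libraries were above both control libraries for both genes, as for NOTCH1 and NOTCH2.

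In gRNA2+dox against CTL+dox, 5 of 9 coactivator genes and 6 of 11 corepressor genes were higher and 0 of either were lower, beside 20.8% higher and 19.4% lower of all genes tested. The log2 ratio was 0.53 for EP300 and 0.54 for CREBBP. In gRNA2+dox against CTL, 4 coactivator genes were higher and 0 lower, and 4 corepressor genes were higher and 2 lower. Of all genes tested, 18.6% were higher and 14.7% lower there. In CTL+dox against CTL, 4 coactivator and 7 corepressor genes were lower and 0 of either were higher. The shares of all genes in that comparison were 14.3% lower and 16.6% higher. In gRNA2+dox against gRNA2, 1 of 9 coactivator genes, RBPJ, was higher and 0 were lower. Of 11 corepressor genes, 2 were lower, NCOR1 and SPEN, and 0 were higher. Beside these stood 13.6% higher and 17.3% lower of all genes tested. The RBPJ ratio was 0.12 (0.01 to 0.22).

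Of 14 genes for ligand endocytosis, receptor trafficking and turnover, 10 were higher and 1 lower in gRNA2+dox against CTL+dox. Of all genes, the same 20.8% were higher and 19.4% lower. Against CTL, 4 of the 14 were higher and 3 lower, beside 18.6% and 14.7% of all genes. Against gRNA2, 2 were higher and 3 lower, beside 13.6% and 17.3%. In CTL+dox against CTL, 1 was higher and 6 were lower, beside 16.6% and 14.3%. DTX3L, a Deltex-family ubiquitin ligase, was higher in gRNA2+dox than in each other library, with log2 ratios of 0.26 to gRNA2, 0.46 to CTL+dox and 0.45 to CTL. ITCH, a ligase that marks Notch for degradation, had 2739 to 3524 reads and a ratio of 0.03 within the guide pool (-0.04 to 0.10). DTX1, with 26 to 54 reads, had its largest ratio, -1.14, in gRNA2+dox against CTL (-1.89 to -0.45).

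**Figure D5:**
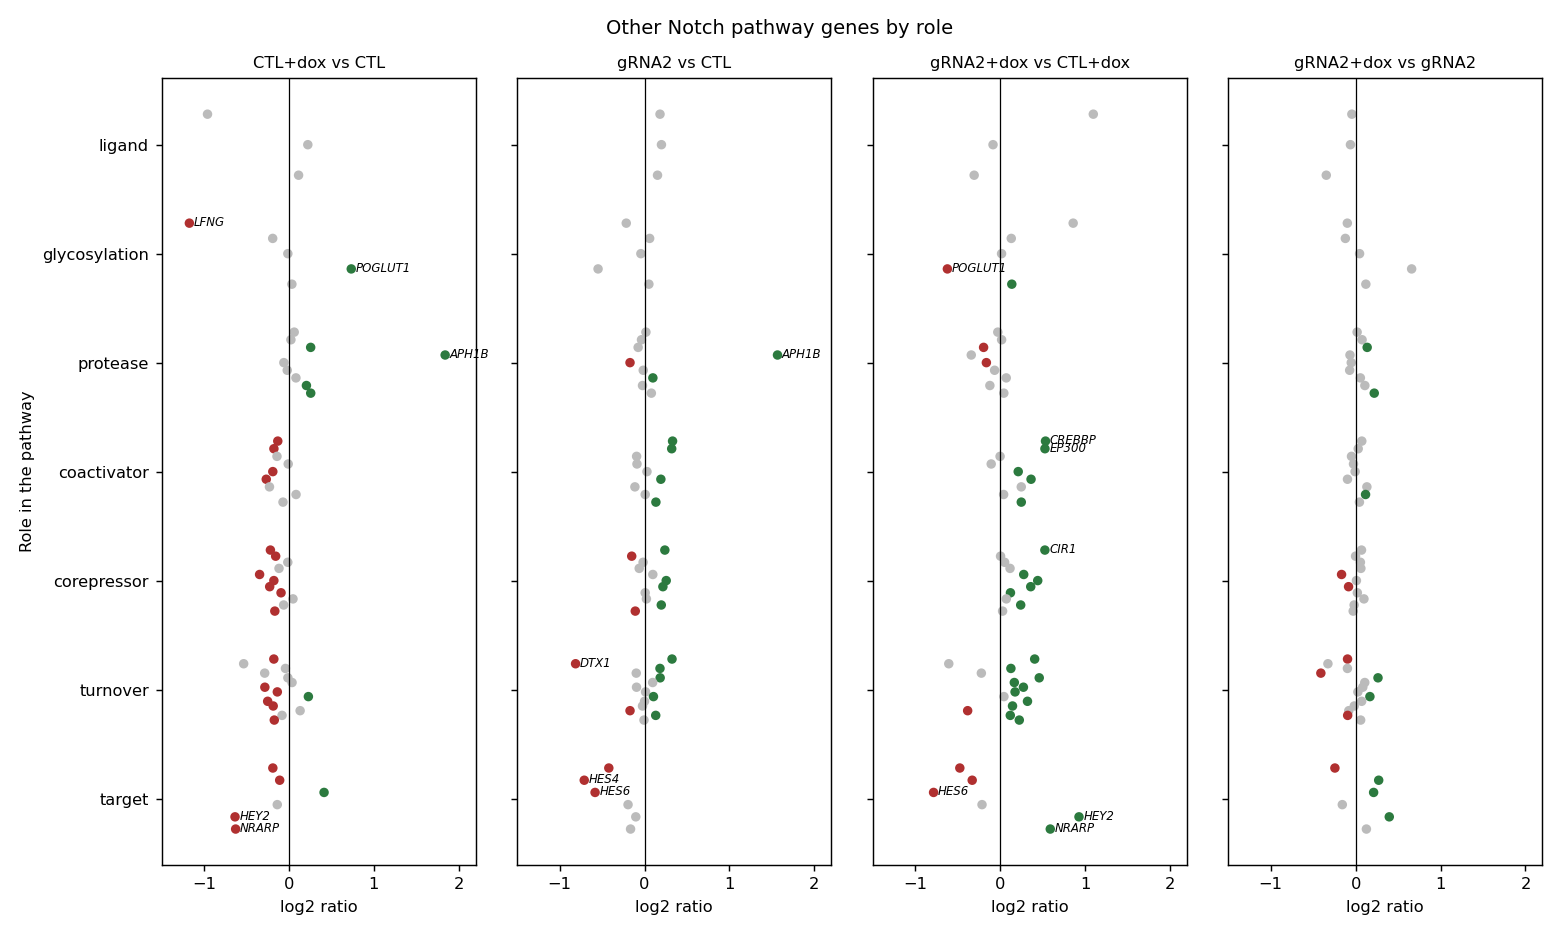
Log2 ratio of the other Notch pathway genes in 4 comparisons, grouped by role on the vertical axis. Each point is a gene, red where the 95% counting interval is below 0, green above 0 and grey where it includes 0; names mark coloured points at least 0.5 from 0, and CREBBP, EP300, HEY2 and NRARP are among those higher in gRNA2+dox against CTL+dox.

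Among the Notch genes with at least 100 reads in every library, JAG2 had the widest range of levels, 0.45 on the log2 scale. The median range of the 10532 genes of that depth was 0.24, and 11.9% of them had a wider one. HEY1, with 93 reads in its lowest library, had a range of 0.52, and NOTCH3 one of 0.14. The genes whose centred log2 CPM over the 4 libraries lay nearest to JAG2 were TMEM86A, TRIP13 and KRT78, at Euclidean distances of 0.0252, 0.0274 and 0.0341. With 4 libraries such likeness is a description only.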

How the data were processed

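The authors trimmed reads with fastp, mapped them with STAR and deposited its raw counts of reads per gene (GFOLD was their own test). The submitters' processing notes name hg38; the annotation and STAR version are not given in the sources used here. The unstranded counts of 4 libraries were used, 1 per condition. edgeR 4.0.16 in R 4.3.3 gave TMM factors over all genes, and log2 ratios used a prior count of 0.5. Genes with at least 10 reads in at least 1 library were tested, 15204 of 26475. Intervals of a ratio are exact Clopper-Pearson intervals (95%), and those of a level are exact Poisson intervals. Bounds and differences of ratios come from the Poisson posterior (100000 draws for the differences), checked on simulated counts (Python 3.11.15; scipy 1.17.1; numpy 2.4.6). GFOLD was not run. STAR counts uniquely mapped reads only, so genes with near copies lose reads. Total counts per library set the precision, and a gene with 3 reads stands at 0.115 to 0.147 CPM. The genes and lists were chosen with earlier results of these data known. Named beside the 9 genes and TCOF1 were pathway genes called or with the most reads in each role (1 of these is not reported here), the NOTCH2 copies and the 3 genes nearest to the widest-ranging Notch gene; the other pathway genes in the text were chosen after their values were seen. Exon lengths come from GENCODE 44 on GRCh37, and positions and promoters from RefSeq on GRCh38.p14. Other settings tried were total counts, size factors of DESeq2 1.42.0, a prior count of 5, thinning, both strand columns summed, no filter, at least 50 reads, a bound at 5% and no bound; centring by exon length or GC content, TMM over tested genes and another exon length were chosen after seeing the data.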

Additional observations from a re-analysis of the deposited data

Results flagged for a closer look

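Between the pools, 3 of the 8 Notch genes compared had doxycycline ratios that differed by more than counting error, in log2 units and as the guide pool minus the control pool: NOTCH3 by 0.060, JAG1 by 0.19 and HES1 by 0.26. Each pool had 1 library with doxycycline and 1 without, so a difference between cultures cannot be told apart from one between pools. Beside these, 27.2% of all genes tested differed in the same way. The 3 differences were not centred by exon length or GC content, which moved single ratios of the 8 genes by up to 0.09.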

How the results depend on the processing

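Under another bound or none, NOTCH4 became a called gene: with the bound at 5% or with the log2 ratio alone, 1 gene was called lower in each comparison with gRNA2+dox. With the bound at 5%, 1 other pathway gene was called lower in gRNA2+dox against CTL (DTX1) and 1 higher in CTL+dox against CTL (APH1B). With the log2 ratio alone, 1 other pathway gene was called higher in each comparison except gRNA2+dox against gRNA2 (DLK2 against CTL+dox, otherwise APH1B), and 1 lower in gRNA2+dox against CTL (DTX1) and in CTL+dox against CTL (LFNG). By the interval rule, the count lower in gRNA2 against CTL was 2 in place of 1 with DESeq2 size factors, total counts, thinning and TMM over tested genes, as NOTCH3 joined HES1, and the count higher in gRNA2+dox against gRNA2 was 1 in place of 2 with total counts, as HES1 left. No ratio of a Notch gene with an interval without 0 changed sign. Other library sizes moved the ratios of the 8 genes by at most 0.05, thinning by at most 0.10 and centring by at most 0.09, and a prior count of 5 moved that of NOTCH4 by up to 0.42. No paired analysis was possible because no condition had a replicate, and for the same reason no library could be left out. Reads on NOTCH4, DLL1, HEY1 and JAG2 limit what can be said of them.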
